A study of Mus musculus with 54 samples.

Results

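Of 364 measured mouse genes whose symbol begins with Slc and a digit, 144 reached a mean log2 signal of 8.5 or more in at least 1 of 9 groups of Ba/F3-gp130 cells. These 144 expressed solute carrier genes were chosen by their level, so their levels are given as a description and carry no test. The share of solute carrier genes that reached 8.5 was 39.6%, beside 44.6% of all 19938 genes. Of the 144, 131 were at 8.5 or more in all 9 groups. The other 13 passed through some groups only and had to differ between groups by the way they were chosen. They were Slc12a4, Slc14a1, Slc22a12, Slc24a5, Slc25a25, Slc25a40, Slc2a6, Slc2a9, Slc30a3, Slc35d2, Slc51a, Slc9a9 and Slc9b1. Just inside the threshold lay Slc2a6 (8.52), Slc30a3 (8.53) and Slc12a4 (8.54) by their highest group mean, and just outside it lay Slc22a13 (8.46), Slc25a43 (8.37) and Slc39a3 (8.29).

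Solute carriers are membrane proteins that move sugars, amino acids, nucleotides, ions, metals and vitamins across the plasma membrane and the membranes of organelles. They work as facilitators, as exchangers or as transporters coupled to an ion gradient, and the families are numbered by relatedness of sequence. In dividing blood cells the glucose and amino acid carriers at the surface feed growth, and the family 25 carriers link the cytosol with the mitochondrial matrix. The symbols of 140 of the 144 genes have the carrier form of family number and member number, and those 140 fall into 44 families. The symbols of the other 4 name partner proteins: Slc9a3r1 and Slc9a3r2 are scaffold proteins, and Slc7a6os and Slc4a1ap are named after a neighbouring or bound carrier.

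All cells were Ba/F3-gp130, a cytokine-dependent pro-B line from the mouse that was given gp130, the signalling subunit shared by the interleukin-6 family, and that grows in Hyper-IL-6, in which interleukin-6 is joined to its soluble receptor. The lines were the untransfected (parental) line and 3 lines transfected with the receptor constructs CIR-1, CIR-2 or CIR-3, where CIR stands for Cargo Internalization Receptor, and the stated purpose of the arrays was to see what the constructs do to the cells. All lines were grown with 10 ng/ml Hyper-IL-6, washed 4 times and kept for 3 h without serum. Each line was measured unstimulated and after 1 h with 50 µl/ml of GFP-PFC, a perfluorocarbon emulsion, and parental cells also after 1 h with 100 ng/ml Hyper-IL-6, which made 9 groups of 3 arrays. The labels name no arm given a liquid free of emulsion or cytokine, and they do not say whether a CIR line was 1 clone or a pool. Nor do they name separate cultures behind the 3 arrays of a group, so the p-values measure only the spread between these arrays, which may be technical.

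The 27 arrays had medians between 7.52 and 7.65 log2 units and lower quartiles between 6.22 and 6.31. The number of arrays limits the precision. Of 13 measured pro-B markers, Cd79a, Cd79b and Ptprc were at 8.5 or more in all groups, while 9, among them Pax5, Ebf1, Rag1 and Rag2, lay below every array median in all groups. Of 4 measured erythroid markers, Gata1, Klf1 and Epor were at 8.5 or more in all groups and Alas2 lay below every array median. The myeloid marker Mpo (8.87 to 11.43 over the groups) and Gzmb of the mast cell and basophil list (11.4 to 13.84) were also at 8.5 or more in all groups. Replicate numbers were 1, 3 and 5 in unstimulated groups and 2, 4 and 6 in stimulated ones. In the 8 groups without Hyper-IL-6, the arrays numbered 1 and 2 deviated alike, and this moved many solute carrier genes, as described in the last part of the results.

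Among the genes with the highest signals were mitochondrial carriers, amino acid carriers, the heme transporter Slc48a1 and the vesicular monoamine transporter Slc18a2. Signals of different genes depend on their probes as well as on RNA, so an order of levels between genes is that of the signals alone. Over 27 arrays, the mean log2 level of the 144 genes ran from 8.25 to 13.8 with a median of 10.4, and 19 genes were at 12 or more. The highest was Slc25a5 (13.8), an ADP/ATP carrier of the inner mitochondrial membrane, with its relative Slc25a4 at 13.2. Among the 30 mitochondrial carriers (of 46 measured), the aspartate-glutamate carrier Slc25a12 followed at 13.0 and the citrate carrier Slc25a1 at 12.5. The 30 had a median level of 10.7.

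The 21 amino acid carriers (of 63 measured) had a median level of 11.1. The sodium-coupled neutral amino acid importer Slc38a2 and Slc3a2, the heavy chain that carries several amino acid exchangers to the surface, were both at 13.5. The light chain Slc7a5, which brings in leucine and other large neutral amino acids, was at 13.0 and Slc38a1 at 12.8. The cationic amino acid importer Slc7a1 (11.7), the glutamine carrier Slc1a5 (11.2) and the cystine-glutamate exchanger Slc7a11 (10.6) were also members.

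Of 34 measured sugar carriers, 12 were members, and the glucose transporters Slc2a3 (12.6) and Slc2a1 (12.1) stood above the class median of 9.31. The lactate and pyruvate carrier Slc16a1 was at 12.6, and it was 1 of 2 members among 13 measured monocarboxylate carriers. Of 32 measured metal ion carriers, 21 were members, with the heme transporter Slc48a1 (13.3) and the zinc carriers Slc30a5 (12.1) and Slc39a7 (11.6) on top. The iron carriers Slc11a2 (9.47), Slc25a37 (9.75), which brings iron into mitochondria, and Slc39a14 (9.30) were lower. The iron exporter Slc40a1 did not reach the threshold, at a mean level of 6.30 near the lower quartiles of the arrays.

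Carriers of nucleotide sugars and acetyl-CoA made up 21 of 28 measured genes, led by Slc35a4 (13.0) and by Slc35b1 (11.9), which exchanges ATP and ADP in the endoplasmic reticulum. Of 41 measured carriers of vitamins, choline and organic cations, 11 were members, and the vesicular monoamine transporter Slc18a2 (13.0) and the choline transporter-like protein Slc44a2 (12.5) were the highest. Of 47 measured inorganic ion and pH carriers, 9 were members, and Slc9a8, a sodium-proton exchanger of the Golgi, led them at 10.8. The remaining classes held few members, namely 3 of 19 phosphate and organic anion carriers, 3 of 14 lipid and bile acid carriers, 3 of 12 nucleoside and nucleobase carriers, 3 of 7 peptide and lysosomal carriers and 1 of 2 urea carriers. All these classes follow the family number of the symbol, so a class name need not hold for each of its genes. The phosphate importer Slc20a1 was at 11.2. The nucleoside carrier Slc29a1 (7.88) and the red-cell anion exchanger Slc4a1 (7.77) stayed below the threshold.

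**Figure D1:**
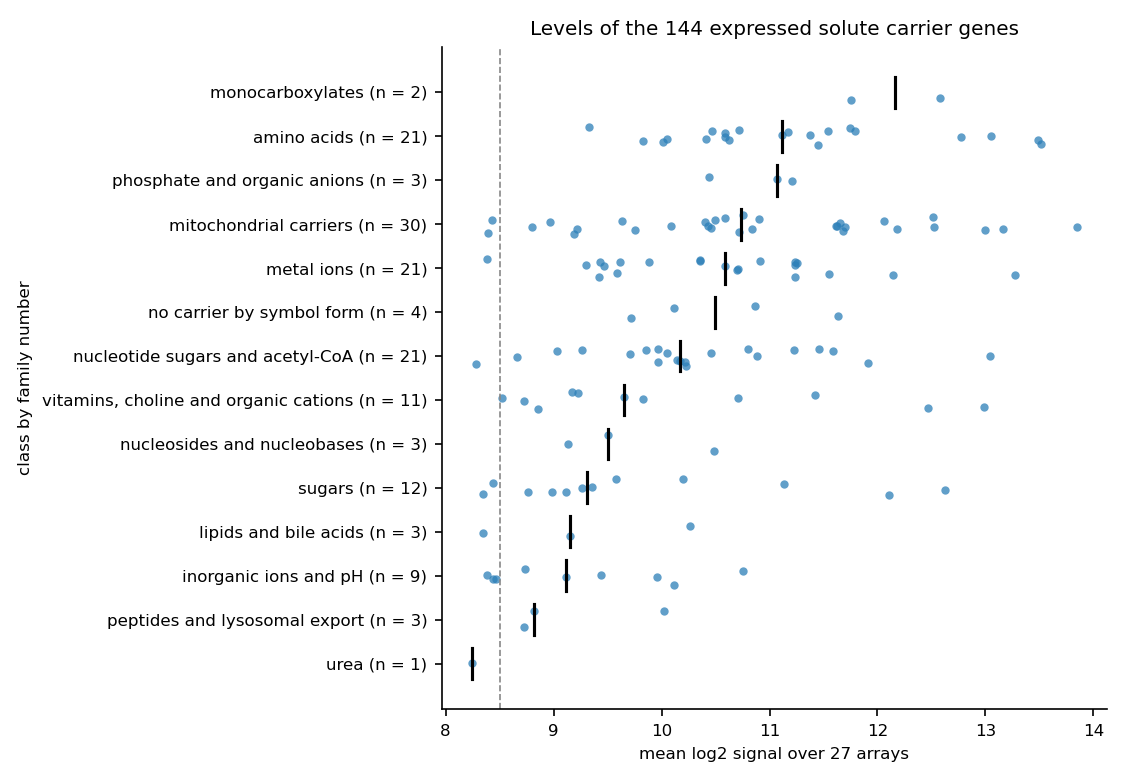
Mean log2 signal over 27 arrays (horizontal axis) of each of the 144 expressed solute carrier genes, by class (vertical axis, number of genes in brackets). Points are genes, black bars are class medians and the dashed line marks 8.5; the amino acid carriers have a median of 11.1 and the mitochondrial carriers one of 10.7, and the highest point is Slc25a5 at 13.8.

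Most of these genes kept nearly the same level in all 9 groups. The highest and lowest group means of a gene lay 0.25 log2 units apart in the median gene, beside 0.20 for all 8894 genes that reached 8.5. The distance was above 0.5 for 14 genes (9.72%, beside 7.38% of those 8894 genes) and above 1 for 3, Slc14a1 (3.02), Slc24a5 (1.72) and Slc9a9 (1.67), all of which belong to the 13 that passed in some groups only. The group means of Slc25a5, and of the sugar carrier Slc50a1 (level 11.1), lay within 0.06, and those of Slc25a1 within 0.08. The highest group mean was that of parental cells with Hyper-IL-6 for 51 of the 144 genes (35.4%, beside 18.5% of the genes that reached 8.5) and for 46 of the 131 at 8.5 or more everywhere (35.1%, beside 18.3% of such genes). The other 8 groups each held a low first array for 60 of the 144 genes, and the part of those arrays in this count was not tested. Within groups the pooled SD had a median of 0.14 and reached 0.44 in Slc1a4, a neutral amino acid exchanger named after its value was seen. In limma's moderated F-test over the 9 groups, 14 of the 144 genes passed an adjusted p of 0.05, beside 5.48% of all genes and 9.95% of the genes that reached 8.5. Of the 131 genes above 8.5 everywhere, 9 passed, beside 8.59% of all 8371 such genes, so the share among carriers was near the background.

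The CIR lines were compared with parental cells at rest and, in other arrays, with GFP-PFC. Few of the 131 steadily expressed carriers differed, and the differences that passed were below 0.4 log2 units. At rest, 1, 1 and 0 of 131 differed in the CIR lines in order of number, and 12, 7 and 15 had an unadjusted p under 0.05 in limma. The counts at the unadjusted p are given without a share of all genes and are not read as an excess. For the adjusted p the background at rest was 1.73%, 1.21% and 1.48% of all genes, and 2.65%, 1.79% and 2.16% of the genes at 8.5 or more in all groups. With GFP-PFC, 1, 2 and 2 of 131 differed, beside 1.64%, 1.18% and 1.24% of all genes, and 2.40%, 1.58% and 1.66% of those at 8.5 or more in all groups. The carriers' shares ran from 0% to 1.53% and lay below the latter background in each of the 6 comparisons. RNA was measured in bulk, so a change in all cells and a change in some of them cannot be told apart. In fits to the 6 arrays of each comparison alone, every one of these calls ended. Over all 144 genes the counts were 4, 5 and 3 at rest and 4, 6 and 5 with GFP-PFC. The added genes were among the 13 that had to differ, so these counts support nothing. The 3 comparisons at rest share the parental unstimulated arrays, and the 3 with GFP-PFC share the parental GFP-PFC arrays.

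The zinc importer Slc39a4 was lower in CIR-1 cells. At rest its log2 levels were 9.81, 9.61 and 9.81 in parental cells and 9.34, 9.39 and 9.33 in CIR-1 cells. All 3 CIR-1 arrays lay below all parental ones, and the difference was -0.39 (SE 0.076, adjusted p = 0.00466). With GFP-PFC the levels were 9.70, 9.69 and 9.76 in parental and 9.37, 9.54 and 9.48 in CIR-1 cells, again without overlap, and the difference of -0.25 (SE 0.076) had an adjusted p of 0.115, or 0.0455 with the replicate block. The call at rest ended without the arrays numbered 1 and 2 (adjusted p = 0.0502).

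Slc25a11, the carrier that exchanges oxoglutarate for malate across the inner mitochondrial membrane, was higher in CIR-2 cells. At rest it measured 12.04, 11.93 and 11.88 in parental cells and 12.19, 12.25 and 12.31 in CIR-2 cells, with no overlap and a difference of 0.30 (SE 0.057, adjusted p = 0.00392). With GFP-PFC the 3 parental arrays lay between 11.91 and 12.02 and the CIR-2 arrays at 12.17, 12.27 and 12.31, a difference of 0.27 (SE 0.057, adjusted p = 0.0121). The CIR-2 arrays were above the parental ones in both conditions, and all 9 exon-level probe sets of the gene were higher in CIR-2 cells in each condition. With GFP-PFC the call ended from exon-level values (adjusted p = 0.0561) and without parental array 6 (adjusted p = 0.0995), CIR-2 array 4 (adjusted p = 0.0709) or CIR-2 array 6 (adjusted p = 0.108).

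Slc66a2, a PQ-loop protein grouped with the lysosomal amino acid exporters, was higher in all 3 CIR lines with GFP-PFC. Its levels were 8.61, 8.42 and 8.59 in parental cells, 8.92, 8.79 and 9.01 in CIR-1, 8.83, 8.90 and 8.90 in CIR-2 and 8.87, 8.95 and 8.94 in CIR-3 cells. Every CIR array lay above every parental one. In the order of the constructs the differences were 0.37, 0.33 and 0.38 (SE 0.068 each, adjusted p = 0.00231, 0.00829 and 0.00172). At rest the groups did not overlap either, and the differences were 0.25, 0.27 and 0.26 (adjusted p = 0.0593, 0.0501 and 0.0608). With the replicate block all 3 passed at rest as well (adjusted p = 0.0180, 0.0143 and 0.0177). From exon-level values all 3 GFP-PFC calls ended (adjusted p = 0.127, 0.633 and 0.287), with a difference of 0.18 in CIR-2, while 11, 9 and 11 of 13 exon-level probe sets were higher. The CIR-2 call also ended without parental array 4 (adjusted p = 0.0916), CIR-2 array 4 (adjusted p = 0.0546) or CIR-2 array 6 (adjusted p = 0.0559).

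Slc8b1, the mitochondrial sodium-calcium exchanger, was higher in CIR-3 cells with GFP-PFC, at 10.17, 10.25 and 10.41 beside 9.90, 9.96 and 10.01 in parental cells. The groups did not overlap, and the difference was 0.32 (SE 0.077, adjusted p = 0.0359). At rest it was 0.29 (SE 0.077, adjusted p = 0.0683, and 0.0263 with the block). The call with GFP-PFC ended without parental array 2, 4 or 6 (adjusted p = 0.190, 0.126 and 0.0641) or CIR-3 array 4 or 6 (adjusted p = 0.0893 and 0.254), with quantile normalization (adjusted p = 0.119) and from exon-level values (adjusted p = 0.0633).

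Array numbers paired the arrays of the lines, and a block for them raised the counts. Of the 131 genes, 7, 4 and 7 then differed at rest in the 3 lines in order of number, beside 3.52%, 2.47% and 3.30% of all genes, and 4, 5 and 6 with GFP-PFC, beside 3.27%, 2.37% and 2.44%. Over all 144 genes the blocked counts were 10, 8 and 11 at rest and 7, 9 and 10 with GFP-PFC. The genes that the 144 bring in were among the 13 that had to differ, so the blocked counts over 144 support nothing. The vesicular monoamine transporter Slc18a2 was among the genes added by the block: it was 0.26 higher in CIR-2 and 0.25 higher in CIR-3 cells at rest (adjusted p = 0.00612 and 0.00535 with the block, 0.380 and 0.282 without). Without parental unstimulated array 1, 9 of the 144 genes differed in CIR-3 cells at rest in place of 3, and 4 of the 131 in place of 0, beside 8.22% of all genes in that fit.

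The widest differences between lines were those of genes that passed the threshold in some groups only, and they are given without a test. Slc14a1, the urea transporter of red cells and kidney vessels, measured 7.25, 7.19 and 7.17 in unstimulated parental cells and 7.18, 7.34 and 7.25 in CIR-3 cells, below the array medians. It measured 8.88, 9.01 and 8.93 in CIR-2 cells and 10.27, 10.42 and 9.40 in CIR-1 cells. The CIR-1 arrays were the highest of all, CIR-2 was next, and CIR-3 overlapped parental cells. With GFP-PFC the means were 10.14 ± 0.51 (SD, n = 3) in CIR-1 cells, 9.06 ± 0.14 in CIR-2 cells, 7.26 ± 0.10 in CIR-3 cells and 7.12 ± 0.05 in parental cells. The CIR-1 difference from parental cells was 2.83 at rest and 3.02 with GFP-PFC, and all 12 exon-level probe sets were higher in CIR-1 cells in both conditions. The mean level of 4 measured erythroid markers at rest was also highest in CIR-1 cells, at 9.18 to 9.25 over the arrays, beside 9.12 to 9.15 in CIR-2, 9.03 to 9.05 in CIR-3 and 8.83 to 8.90 in parental cells. That of 7 mast cell and basophil markers was highest in parental cells, at 7.74 to 8.16 beside 7.11 to 7.53 over the CIR arrays. That of 7 myeloid markers was 7.52 to 7.56 in parental cells, 7.45 to 7.58 in CIR-3, 7.32 to 7.38 in CIR-2 and 7.21 to 7.29 in CIR-1 cells. Few genes ranged widely over the 9 group means. In the mast cell and basophil list they were Fcer1a (4.87 to 9.37), Gzmb (11.4 to 13.84) and Ms4a2 (7.8 to 9.03), while Kit, Cpa3, Mcpt8 and Tpsab1 hardly moved. In the myeloid list they were Mpo (8.87 to 11.43), Lyz2 (6.36 to 7.57) and Itgam (6.46 to 7.1), while Csf1r, Adgre1, Cd14 and Elane hardly moved. Both list means therefore do not stand for most of their genes. The part of these markers in the line differences of the carriers was not tested.

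Slc24a5, a potassium-dependent sodium-calcium exchanger known from pigment cells, was lowest in CIR-3 cells. At rest it measured 7.87, 7.72 and 7.63 in CIR-3, 9.30, 9.41 and 9.53 in CIR-2, 8.79, 8.67 and 8.54 in CIR-1 and 9.06, 8.89 and 8.71 in parental cells. The CIR-3 arrays lay below all others, the CIR-2 arrays above all others, and CIR-1 and parental arrays overlapped. The difference from parental cells was -1.14 in CIR-3 and 0.53 in CIR-2 cells at rest, and -1.23 and 0.44 with GFP-PFC. At exon level, 8 of 10 probe sets were lower in CIR-3 cells at rest and 10 of 10 with GFP-PFC.

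Slc9a9, an endosomal sodium-proton exchanger, was lower in CIR-1 cells, at 7.78, 7.69 and 7.46 beside 9.05, 8.54 and 9.06 in parental cells at rest, without overlap. In CIR-2 cells it measured 7.98, 7.95 and 8.46, below the parental arrays, and in CIR-3 cells 8.29, 8.65 and 8.34, overlapping them. The CIR-1 difference was -1.24 at rest and -1.23 with GFP-PFC, and all 16 exon-level probe sets were lower in both conditions.

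Slc35d2, a nucleotide sugar transporter of the Golgi, was near 8.5 in every CIR group and below it in parental cells. It measured 8.04, 7.77 and 7.46 in unstimulated parental cells, and the lowest of the 9 unstimulated CIR arrays was at 8.34. No CIR array overlapped the parental ones, and the differences at rest were 0.70, 0.68 and 0.73 for the constructs in order of number. With GFP-PFC they were 0.62, 0.71 and 0.61. Slc51a, the alpha subunit of an organic solute transporter for bile acids and steroids, reached 8.67 ± 0.07 (SD, n = 3) in CIR-3 cells at rest beside 8.18 ± 0.08 in parental cells.

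**Figure D2:**
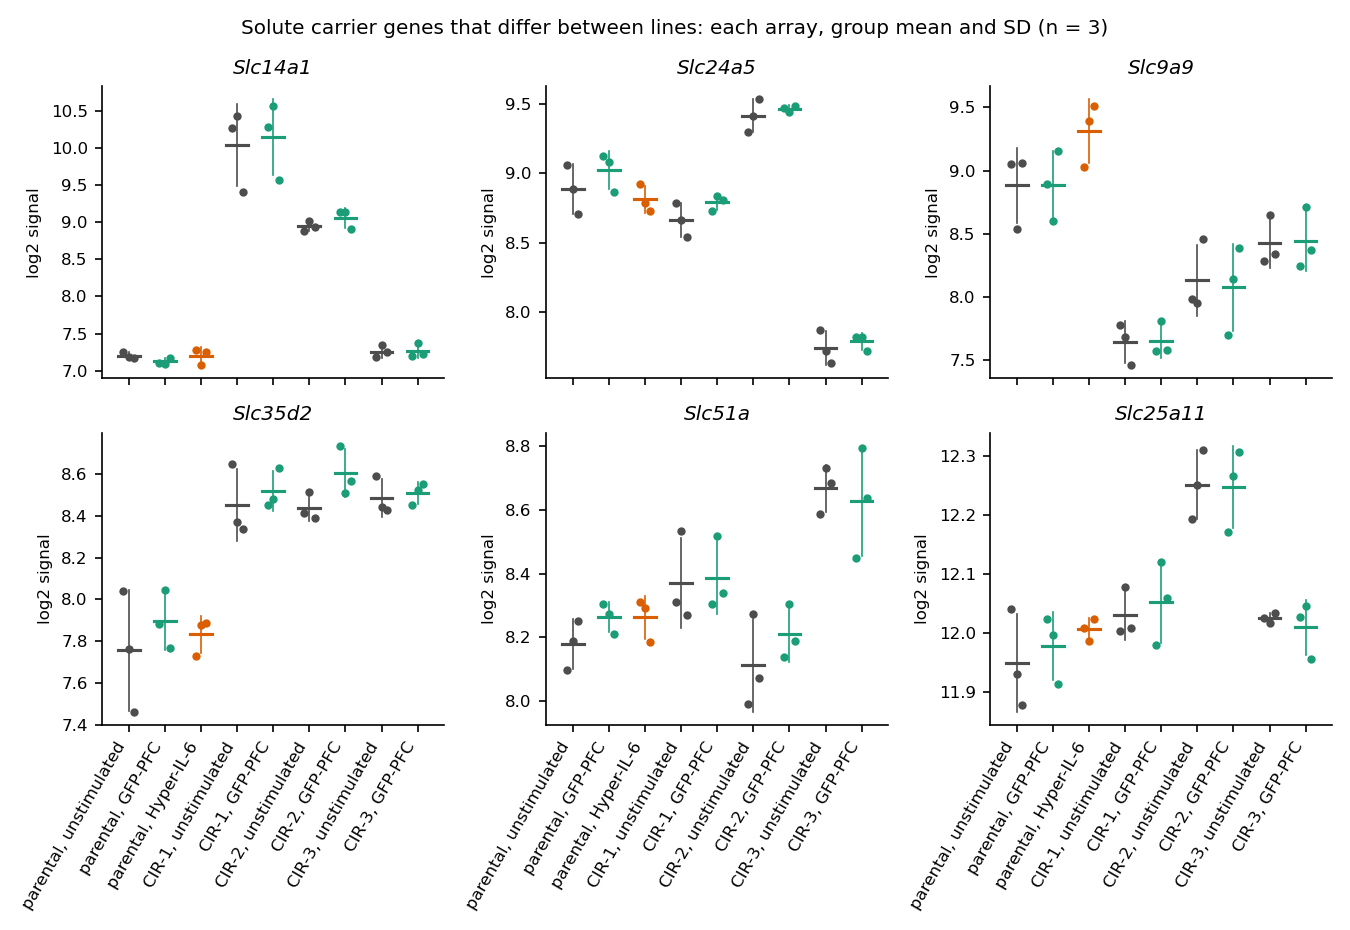
Log2 signal (vertical axes, not starting at 0) of 6 solute carrier genes in the 9 groups (horizontal axes). Points are the 3 arrays of a group, horizontal bars their mean and vertical lines ± 1 SD; CIR-1 arrays of Slc14a1 lie between 9.40 and 10.57 while parental and CIR-3 arrays lie at 7.37 or less, and CIR-3 arrays of Slc24a5 lie below all others.

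The 3 CIR lines also differed from each other, taken as the mean of both conditions (6 arrays a line). In limma's F-test 5 of the 131 steadily expressed genes passed, beside 3.71% of all genes and 5.54% of genes at 8.5 or more everywhere, and 10 of all 144 passed. The added genes, Slc14a1, Slc24a5, Slc2a9, Slc51a and Slc9a9, were among the 13 that had to differ, so the count of 10 supports nothing. Slc25a11 differed by 0.21 between CIR-2 and CIR-1 cells and by -0.23 between CIR-3 and CIR-2 cells (SE 0.040 each, adjusted p of the F-test 0.000677), so CIR-2 stood above the other lines. Slc37a3, a lysosomal member of the sugar phosphate exchanger family, was highest in CIR-3 cells, at 9.47 ± 0.12 at rest and 9.69 ± 0.13 with GFP-PFC (SD, n = 3), which was 0.48 (SE 0.091) above CIR-1 and 0.43 (SE 0.091) above CIR-2 (adjusted p of the F-test 0.00187). Slc49a4, a lysosomal carrier, was lowest in CIR-2 cells, where its levels were 9.60, 9.23 and 9.12 at rest and 9.53, 9.21 and 9.01 with GFP-PFC. Its CIR-1 levels were 10.00, 9.60 and 9.70 at rest, and the mean difference was -0.49 (SE 0.106, adjusted p of the F-test 0.00641). In both lines the arrays numbered 1 and 2 were the highest.

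Slc45a4 was lower in CIR-2 than in CIR-1 cells (difference -0.29, SE 0.061, adjusted p of the F-test 0.0134), and the call ended without CIR-2 unstimulated array 3 (adjusted p = 0.0507) and without the arrays numbered 1 and 2 (adjusted p = 0.0581). Slc39a6, a zinc importer, was 0.26 higher in CIR-3 than in CIR-1 cells (SE 0.064, adjusted p of the F-test 0.0335). That call ended without any 1 of the arrays 3, 4, 5 and 6 of CIR-1, 3, 4, 5 and 6 of CIR-2, and 1, 2, 5 and 6 of CIR-3, at adjusted p values from 0.0502 to 0.134. With the replicate block 31 of the 131 genes and 36 of the 144 differed among the CIR lines, beside 7.33% of all genes. The genes that the 144 bring in were again among the 13 that had to differ.

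Genes outside the solute carrier families that handle the same solutes were compared from lists. Of 18 measured iron and heme handling genes, 2 differed at rest in each CIR line. The iron-siderophore binding protein Lcn2 was higher, by 1.84, 1.83 and 1.53 in order of the construct number (SE 0.22, adjusted p = 1.34e-05, 1.3e-05 and 0.000151). The iron carrier protein transferrin, Trf, was lower, with differences of -0.71, -0.79 and -0.78 (SE 0.086, adjusted p = 1.37e-05, 2.68e-06 and 2.74e-06). Of 13 glycolysis and lactate genes, 1 passed in each line at rest, the phosphofructokinase Pfkp, which was 0.40, 0.30 and 0.47 higher (SE 0.058, adjusted p = 0.000157, 0.00521 and 2.02e-05). With GFP-PFC Lcn2, Trf and Pfkp passed in the same directions in all 3 lines, and Ftl1, a ferritin chain, and the cholesterol exporter Abcg1 passed in CIR-1 cells. None of 19 amino acid response genes, 4 zinc buffering genes, 17 carriers with other names and 16 ABC transporters passed at rest in any CIR line in limma, and 8, 4 and 8 of these 56 genes had an unadjusted p under 0.05.

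Hyper-IL-6 for 1 h raised 4 expressed carriers in parental cells. In limma 4 of 144 genes passed, all higher and all among the 131 at 8.5 or more everywhere, beside 0.777% of all genes, 1.53% of genes that reached 8.5 and 1.24% of those at 8.5 or more in all groups. The direction was not particular to the carriers. Of all genes, 147 passed as higher and 8 as lower, and of those that reached 8.5, 134 and 2. Hyper-IL-6 signals through gp130 to STAT factors, which bind sites of the form TTCNNNGAA. That form, which reads the same on both strands, was looked for in the 250 bases before each start site in RefSeq promoters (GRCm38.p6), where 116 of the 144 genes were matched. It was held by 7.02% of 32851 windows, by 8 of 153 windows of the expressed carriers and by 1 of the 5 windows of the 4 genes that rose. The windows of Slc22a15, which holds the form, and of Slc25a30, which has the smallest p-value, are shown to let both be read, with the match in capitals.
Slc22a15 (chr3:101924454-101924703, minus strand): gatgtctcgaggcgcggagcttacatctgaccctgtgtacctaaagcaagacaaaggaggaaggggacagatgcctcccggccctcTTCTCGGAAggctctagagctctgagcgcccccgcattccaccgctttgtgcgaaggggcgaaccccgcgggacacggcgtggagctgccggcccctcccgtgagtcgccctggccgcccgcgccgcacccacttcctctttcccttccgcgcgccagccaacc
Slc25a30 (chr14:75787038-75787287, minus strand): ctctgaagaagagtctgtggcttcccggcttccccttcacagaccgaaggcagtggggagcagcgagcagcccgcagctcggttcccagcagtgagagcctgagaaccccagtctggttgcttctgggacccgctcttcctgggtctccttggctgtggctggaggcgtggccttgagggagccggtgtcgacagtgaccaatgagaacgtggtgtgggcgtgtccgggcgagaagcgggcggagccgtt
The match in Slc22a15 begins 164 bases before the start site. A match is a run of letters and not a measured site, and the window of Slc25a30 does not hold it.

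Slc25a30, a mitochondrial carrier of the uncoupling-protein branch, measured 10.42, 10.27 and 10.26 unstimulated, 10.29, 10.27 and 10.31 with GFP-PFC and 10.78, 10.69 and 10.71 with Hyper-IL-6. All Hyper-IL-6 arrays lay above all others of the parental line, and the rise over unstimulated cells was 0.41 (SE 0.059, 1.33-fold, adjusted p = 0.000265). The difference from GFP-PFC was 0.44 (SE 0.059, adjusted p = 0.000134). Slc41a1, a magnesium transporter, measured 9.66, 9.56 and 9.58 unstimulated, 9.51, 9.69 and 9.64 with GFP-PFC and 10.04, 10.23 and 10.16 with Hyper-IL-6. The Hyper-IL-6 arrays again stood clear, and it rose by 0.54 (SE 0.12, 1.46-fold, adjusted p = 0.0211), or by 0.53 over GFP-PFC (adjusted p = 0.0337).

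Slc35f5, a family 35 member of unsettled substrate, rose from 10.13, 9.92 and 9.94 to 10.38, 10.37 and 10.34, by 0.37 (SE 0.067, 1.29-fold, adjusted p = 0.0036). It measured 10.12, 10.06 and 10.06 with GFP-PFC, and the difference of 0.28 from those arrays had an adjusted p of 0.0585. Slc22a15, an organic ion transporter, rose from 9.14, 9.09 and 9.20 to 9.35, 9.61 and 9.71, by 0.41 (SE 0.098, 1.33-fold, adjusted p = 0.0434), and its GFP-PFC levels were 9.03, 9.12 and 9.26 (difference 0.42, adjusted p = 0.0515). The Hyper-IL-6 arrays of both genes lay above all unstimulated and GFP-PFC arrays of the parental line. At exon level 10 of 12 probe sets of Slc25a30 and all probe sets of the other genes (12 of Slc41a1, 17 of Slc35f5 and 14 of Slc22a15) were higher than in unstimulated cells.

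The calls of Slc41a1 and Slc22a15 ended when single arrays were left out. That of Slc41a1 ended without unstimulated array 3 or 5 or Hyper-IL-6 array 4 or 6 (adjusted p = 0.118, 0.0794, 0.188 and 0.119), and that of Slc22a15 without unstimulated array 1, 3 or 5 or Hyper-IL-6 array 4 or 6 (adjusted p = 0.0870, 0.273, 0.0794, 0.312 and 0.480). The call of Slc22a15 also ended with quantile normalization (adjusted p = 0.0564) and from exon-level values (adjusted p = 0.0691). When the model held the 6 compared arrays only, 0 of the 144 genes passed in limma, 16 had an unadjusted p under 0.05, and the adjusted p of Slc25a30 was 0.187. The 16 are given without a share of all genes and are not read as an excess. Against GFP-PFC, 2 of 144 genes passed, Slc25a30 and Slc41a1, beside 0.512% of all genes and 0.824% of those at 8.5 or more in all groups. The call of Slc41a1 there ended without GFP-PFC array 2, 4 or 6 (adjusted p = 0.282, 0.0761 and 0.0864) or Hyper-IL-6 array 4 or 6 (adjusted p = 0.280 and 0.179).

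**Figure D3:**
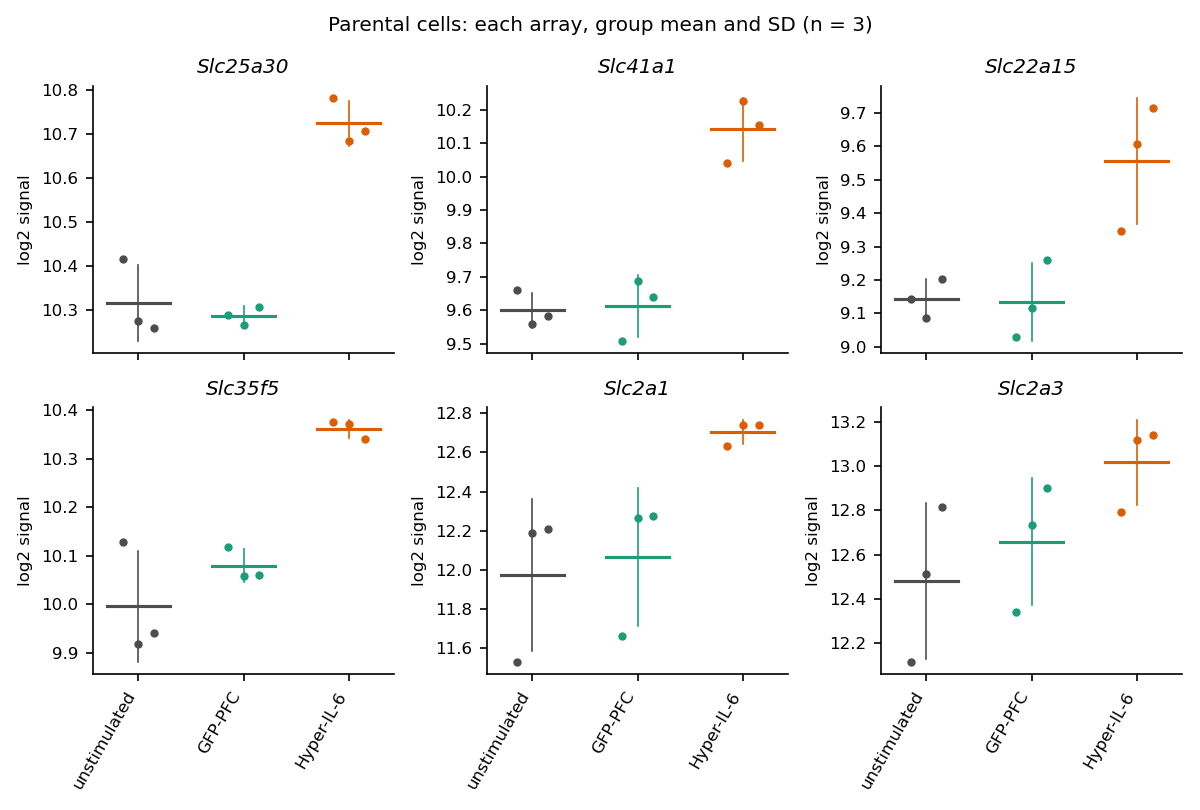
Log2 signal (vertical axes, not starting at 0) of 6 solute carrier genes in parental cells, unstimulated, with GFP-PFC and with Hyper-IL-6 (horizontal axes). Points are the 3 arrays of a group from left to right in order of their number, horizontal bars the mean and vertical lines ± 1 SD; the Hyper-IL-6 arrays of Slc25a30 lie at 10.69 or more and all other parental arrays at 10.42 or less.

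The surface glucose transporters were high after Hyper-IL-6 but did not pass without the replicate block. Slc2a1 measured 11.53, 12.19 and 12.21 unstimulated and 12.63, 12.74 and 12.74 with Hyper-IL-6. The groups did not overlap, unstimulated array 1 stood below the others, and the difference of 0.73 (SE 0.26) had an adjusted p of 0.396. Slc2a3 measured 12.11, 12.51 and 12.81 unstimulated and 12.79, 13.12 and 13.14 with Hyper-IL-6, with overlap (difference 0.54, SE 0.20, adjusted p = 0.499). With the block in limma Slc2a1 and Slc2a3 passed (adjusted p = 0.000162 and 0.00144), although the array numbers did not pair the Hyper-IL-6 arrays. So did the amino acid exchanger Slc1a4 (difference 0.60, adjusted p = 0.00134 with the block and 0.826 without). The amino acid carriers Slc7a5 (difference 0.16), Slc3a2 (0.03), Slc7a1 (0.16), Slc1a5 (0.23) and Slc7a11 (0.38) had adjusted p values of 0.883 or more. The phosphate importer Slc20a1 differed by 0.22 (SE 0.13, adjusted p = 0.851).

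Over all 144 genes the median difference after Hyper-IL-6 was 0.07, with 103 genes above 0, beside a median of -0.01 for all genes and 0.01 for the genes that reached 8.5. The share of all genes above 0 is not given, and the 103 are not read as an excess. In all 8 groups without Hyper-IL-6 the first array was the lowest for 60 of the 144 genes and the highest for 9. The part of this pattern in the median difference was not tested. From the lists, the stress regulator Nupr1 (1.25, SE 0.15, adjusted p = 2.68e-05) was the passing gene of 19 in the amino acid response list, the hexokinase Hk2 (0.99, SE 0.16, adjusted p = 0.000839) that of 13 in the glycolysis list and the iron hormone Hamp (0.38, SE 0.089, adjusted p = 0.0399) that of 18 in the iron list. The Hamp means of 5.00 and 5.38 lay below the lower quartiles of the arrays, so this difference is one of signals not shown to be above background.

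Without a block for the array numbers, GFP-PFC changed no expressed carrier past the threshold, and with it 4 rose. As the mean difference of the 4 lines, 0 of 144 genes passed in limma, beside 0.221% of all genes and 0.430% of those at 8.5 or more in all groups. At an unadjusted p under 0.05 there were 12 of 144, all of them higher with GFP-PFC. Of all genes on the arrays, 37 passed the adjusted threshold as higher and 7 as lower, so the direction was not particular to the carriers. The share of all genes at the unadjusted p is not given here, and the 12 are not read as an excess. The smallest p-value was that of Slc25a20, the carnitine-acylcarnitine carrier that brings fatty acids into mitochondria, which was higher in each line, by 0.20 in parental cells and by 0.16, 0.15 and 0.22 in the CIR lines in order of number. Its mean difference was 0.18 (SE 0.041, adjusted p = 0.0652), positive in 12 of 12 pairs of consecutive array numbers within a line.

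The monocarboxylate carrier Slc16a6, which exports ketone bodies, was 0.26 higher (SE 0.065, adjusted p = 0.144, 12 of 12 pairs) and Slc25a33, the mitochondrial pyrimidine nucleotide carrier, 0.21 higher (SE 0.054, adjusted p = 0.151, 10 pairs). The zinc carrier Slc30a6 (0.10, SE 0.028, adjusted p = 0.270) and the phosphate importer Slc20a1 (0.21, SE 0.063, adjusted p = 0.329) were higher in 12 of 12 pairs as well, although in 1 pair of Slc30a6, CIR-2 arrays 5 and 6, the difference was 0.0006. The glucose transporter Slc2a3 differed by 0.22 (SE 0.10, adjusted p = 0.737), also in 12 of 12 pairs. Pooled over the lines, the GFP-PFC and unstimulated arrays of all 6 genes overlapped. Within single lines some did not overlap. Unstimulated parental arrays of Slc25a20 reached at most 10.62, and those with GFP-PFC lay at 10.73 or more. In CIR-3 cells these values were 10.63 and 10.72, while its CIR-1 and CIR-2 arrays overlapped. Slc16a6, Slc25a33, Slc30a6 and Slc20a1 also stood apart in at least 1 line, and Slc2a3 overlapped in every line.

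With the replicate block 4 of 144 genes passed, all higher and beside 0.757% of all genes. None of the 87 measured genes of the 6 lists passed for GFP-PFC in limma without the block, and 6 had an unadjusted p under 0.05. With the block, the 4 carriers were Slc16a6 (adjusted p = 2.9e-05), Slc25a20 (adjusted p = 0.00237), Slc20a1 (adjusted p = 0.0037) and Slc2a3 (adjusted p = 0.0190). Without the block the count was 1 when CIR-1 unstimulated array 3 or CIR-2 GFP-PFC array 2 was left out. Whether the GFP-PFC difference varied among the lines was tested as an interaction, in which 0 of 144 genes passed in limma, 0 had an unadjusted p under 0.05, and 0% of all genes passed. The labels give no addition of emulsion-free liquid, so a part of these differences due to the addition itself cannot be told apart.

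**Figure D4:**
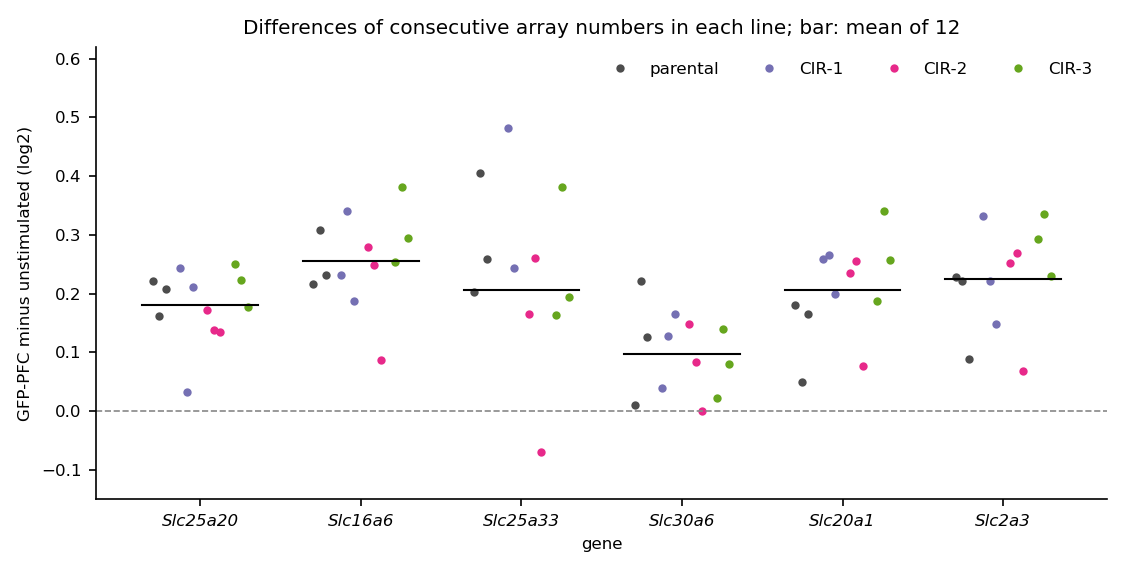
Difference in log2 signal between GFP-PFC and unstimulated arrays of consecutive number within a line (vertical axis) for 6 solute carrier genes (horizontal axis). Points are the pairs coloured by line and the bar is the mean of 12 pairs. Slc25a20, Slc16a6, Slc30a6, Slc20a1 and Slc2a3 have 12 of 12 pairs above 0 (1 pair of Slc30a6 by 0.0006) and Slc25a33 has 10. The Slc25a33 pair of CIR-1 arrays 1 and 2, at -0.22, lies below the range of the axis and is not seen.

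Arrays numbered 1 and 2 were low for many carriers. In all 8 groups without Hyper-IL-6 they were the lowest of the 3 arrays for 60 of the 144 genes (41.7%, beside 14.6% of the 8894 genes that reached 8.5), and the highest for 9 (6.25%, beside 16.9%). The amino acid carriers were low there most often among the larger classes, at 14 of 21, followed by 14 of 30 mitochondrial carriers, and 3 of 3 phosphate and organic anion carriers and 2 of 2 monocarboxylate carriers were low as well. Slc7a5 measured 12.77 in parental unstimulated array 1 beside 13.22 and 13.26 in arrays 3 and 5, and 12.69 in CIR-1 array 1 beside 13.06 and 13.21. Averaged over the 8 groups the arrays numbered 1 and 2 differed from the later ones by -0.42 for Slc7a5, -0.19 for Slc3a2, -0.60 for Slc2a1 and -0.44 for Slc2a3. The largest such difference was -0.71 for Slc1a4.

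The Hyper-IL-6 group did not share this pattern for Slc7a5, which measured 13.24 in array 2 beside 13.23 and 13.26 in arrays 4 and 6. The labels do not say what the numbers stand for. In each line comparison the low arrays stood in both groups. In the comparison of Hyper-IL-6 with unstimulated cells they stood in the unstimulated group, and without the arrays numbered 1 and 2 that comparison called 24 of the 144 genes in place of 4, and 20 of the 131, beside 18.4% of all genes in that fit. The part of this pattern in the Hyper-IL-6 differences was not tested.

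**Figure D5:**
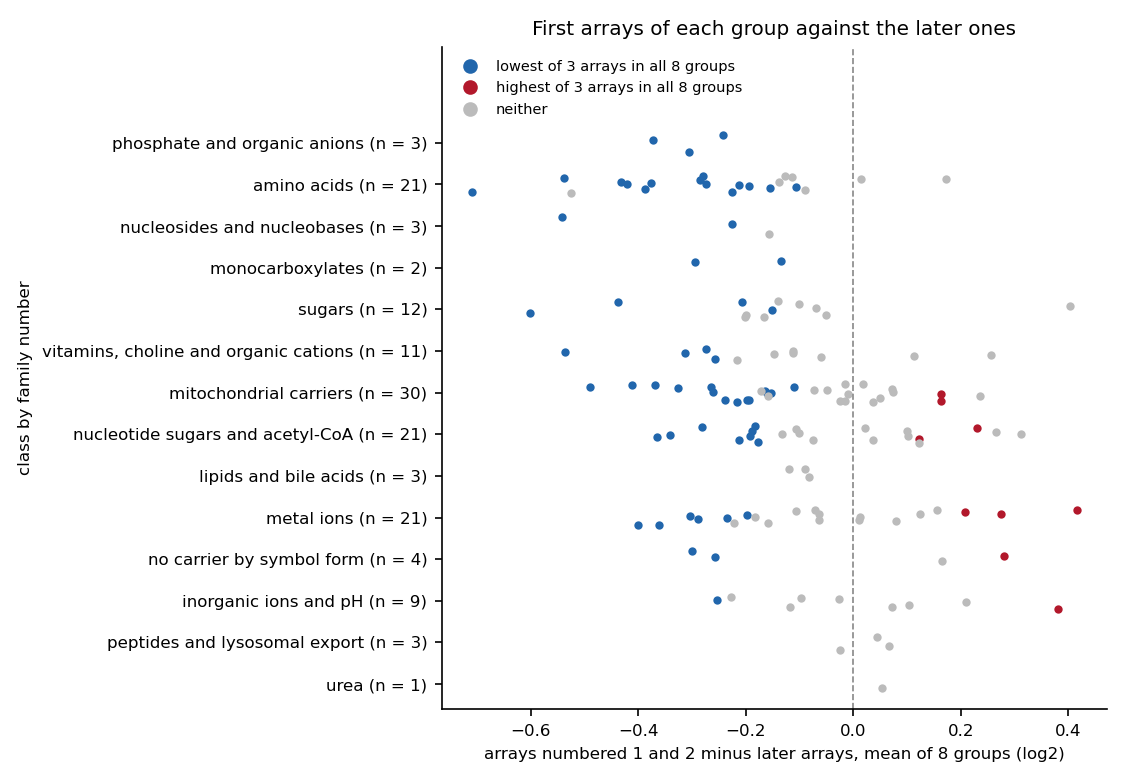
Log2 difference between the arrays numbered 1 or 2 and the mean of the later arrays of the same group, averaged over 8 groups without Hyper-IL-6 (horizontal axis), for the 144 genes by class (vertical axis, number of genes in brackets). Blue points are the 60 genes lowest in the first array of all 8 groups, red points the 9 genes highest there and grey points the others; the leftmost point is Slc1a4 at -0.71.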

How the data were processed

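RNA of 27 Ba/F3-gp130 samples was hybridised to Affymetrix mouse arrays from 150 ng of total RNA each, per the labels' protocols. The authors deposited gene-level and exon-level values made with Affymetrix Expression Console, per the labels. The algorithm, version, normalization, log base and genome build are not given in the sources used here. The deposited values were read as log2 signals because they ran from 2.97 to 14.9, so each fold rests on that reading. Of 35556 gene-level probe sets, 21789 carried 1 symbol, which gave 19938 genes after keeping, of several probe sets, the one with the highest mean over 27 arrays (8 of the 144 carriers had several). No dim genes were left out.

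For every gene limma 3.58.1 in R 4.3.3 (with the package data.table, version 1.17.8) was given 9 group means and all arrays, leaving 18 residual degrees of freedom. P-values are two-sided and were adjusted by Benjamini and Hochberg's method over 19938 genes, with a threshold of 0.05, and each adjusted p comes from this fit unless a setting is named. Counts at an unadjusted p under 0.05 are given without the share of all genes and are not read as an excess. The fitting was tested on simulated data with noise drawn independently for each array. That test does not cover arrays that deviate together by number. Classes follow the family number of the symbol, and a class name need not hold for each of its genes. By family number alone, Slc23a2 was counted with the nucleoside and nucleobase carriers and Slc5a6 with the sugar carriers. Slc22a12 was counted with the carriers of vitamins, choline and organic cations in the same way. Named were the passing genes whose groups did not overlap (up to 10 a direction), the smallest p-values of F-tests, the 5 smallest where fewer than 3 passed, up to 4 genes of highest level per class, the genes around the threshold, a set of anchor genes and up to 3 passing genes per list. The genes, the lists and the tests were chosen with earlier results of these data known.

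Same-numbered arrays deviated together from their group means in all 18 unstimulated pairs (r across genes 0.137 to 0.763), all 18 GFP-PFC pairs (0.211 to 0.615) and all 12 consecutive pairs within a line (0.282 to 0.633), but not in the 24 pairs with Hyper-IL-6 arrays (-0.463 to 0.0594). In the 36 other pairs of the same block r ran from 0.044 to 0.665. Between different blocks, 168 pairs without Hyper-IL-6 arrays had r from -0.617 to 0.447, and 38 of them lay above 0.1. The block therefore stands beside line and GFP-PFC results, and consecutive numbers are a pairing the labels do not state. Other alternatives were the compared arrays alone, arrays 1 and 2 left out, array weights, quantile normalization, a filter on dim genes at 7.868, exon-level values, the mean of probe sets, thresholds of 8 and 9, and each array left out.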

Additional observations from a re-analysis of the deposited data

Results flagged for a closer look

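The 3 CIR lines differed from each other, as the mean of both conditions, for 5 carriers that were at 8.5 or more in all 9 groups. Adjusted p values of limma's F-test were 0.000677 for Slc25a11, highest in CIR-2, 0.00187 for Slc37a3, highest in CIR-3, 0.00641 for Slc49a4, lowest in CIR-2, 0.0134 for Slc45a4, highest in CIR-1, and 0.0335 for Slc39a6, highest in CIR-3. The share of 5 in 131 stood beside 5.54% of all genes at 8.5 or more in all groups.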

How the results depend on the processing

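Of 696 values under other settings, 589 kept their call, 74 lost it, 33 gained it and 0 reversed. They cover, outside the F-tests, the carriers that passed, or the 5 smallest p-values where fewer than 3 passed. Being chosen by small p-values, these had little room to reverse. Other named differences were not among them, such as those among the CIR lines, those of list genes and that of Slc2a1 between Hyper-IL-6 and no stimulation. The counts of passing genes among the 144 moved more. The 144 include the 13 genes that passed in some groups only and had to differ between groups. Counts given here without a share of all genes are not read as an excess. The replicate block gave 44 over the 9 groups, 10, 8 and 11 at rest in the lines by number, 7 and 10 for CIR-1 and CIR-3 with GFP-PFC, 36 among the CIR lines, 4 for GFP-PFC, and 12 and 9 for Hyper-IL-6 against no stimulation and against GFP-PFC, where the numbers did not pair the arrays. Over the 9 groups and for the 2 Hyper-IL-6 comparisons, 37, 12 and 9 of the 131 genes at 8.5 or more everywhere passed, beside 9.93%, 1.64% and 1.26% of all genes with the block. The shares with the block are over all genes, dim ones included, so the blocked counts are not read as an excess among carriers. The block fitted with no Hyper-IL-6 array, chosen after seeing the data, gave 15, 11 and 15 at rest, 8, 13 and 12 with GFP-PFC, 44 among the CIR lines and 7 for GFP-PFC. The compared arrays alone gave 2, 1 and 1 at rest, 3 and 2 for CIR-2 and CIR-3 with GFP-PFC and 0 for Hyper-IL-6. Leaving out the arrays numbered 1 and 2 was taken up because earlier results showed that they stand apart. It gave 34 over the 9 groups, 23 for CIR-3 at rest and 26 among the CIR lines. For GFP-PFC it gave 8, and for Hyper-IL-6 24 and 4. Those fits called 17.5% of all genes over the 9 groups, 16.2% for CIR-3 at rest and 18.4% for Hyper-IL-6 against no stimulation. Over the 9 groups, 26 of the 131 genes at 8.5 or more everywhere passed in that fit. Array weights gave 55 over the 9 groups, 8 and 16 for CIR-2 and CIR-3 at rest, 10 for CIR-2 with GFP-PFC, 31 among the CIR lines, 9 for GFP-PFC, and 24 and 19 for Hyper-IL-6, beside 32.1% of all genes over the 9 groups and 17.4% for Hyper-IL-6 against no stimulation. Exon-level values gave 3 for CIR-2 in each condition and for CIR-3 with GFP-PFC. Leaving out dim genes gave 5 for CIR-3 at rest, 1 for GFP-PFC and 4 for Hyper-IL-6 against GFP-PFC, as did quantile normalization for the last. A threshold of 9 gave 1 for CIR-3 at rest and 2 for CIR-1 and CIR-3 with GFP-PFC. With each array left out in turn the counts ran from 10 to 17 over the 9 groups, 4 to 4, 4 to 6 and 3 to 9 at rest, 4 to 4, 3 to 6 and 3 to 5 with GFP-PFC, 8 to 11 among the CIR lines, 0 to 1 for GFP-PFC, 0 to 0 for its variation among lines, and 2 to 4 and 1 to 3 for Hyper-IL-6. The 9 came without parental unstimulated array 1, the 3 of CIR-2 without parental GFP-PFC array 6 or CIR-2 array 4 or 6, the 3 of CIR-3 without parental GFP-PFC array 2, 4 or 6 or CIR-3 array 4 or 6, the 2 of Hyper-IL-6 without unstimulated array 3 or Hyper-IL-6 array 4 or 6, and the 1 against GFP-PFC without GFP-PFC array 2 or 4 or Hyper-IL-6 array 4 or 6. The fits to the compared arrays have fewer arrays behind the spread, and the cause of the other changes was not tested. The number of arrays limits these counts, and signals near 6.31 or below were not shown to lie above background.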
